A study of Mus musculus with 8 samples.

Results

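Desmosomes are the junctions that fasten epidermal cells to each other and anchor their keratin filaments. The described set is 10 genes of this junction: the desmocollins Dsc1, Dsc2 and Dsc3, the desmogleins Dsg1a, Dsg2 and Dsg3, and the plaque proteins Jup, Pkp1, Pkp3 and Dsp. A gene was taken when a probe set of the array carried its symbol and no other in the platform annotation, and the probe set with the highest mean over the 8 arrays led. This gave 8 of the 10 genes, among 17097 genes in all. Dsg3 and Pkp3 have no probe set that carries their symbol alone in that annotation and were not analysed here.

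RNA was measured on Affymetrix arrays in basal cells sorted from the back skin of outbred CD1 mice, with 1 array per mouse. The expanded group (EXPD4 in the labels, 3 mice) was sampled at day 4 of a force-driven expansion of the skin. The TPA group (2 mice) had received 12-O-tetradecanoylphorbol-13-acetate, a tumour-promoting phorbol ester, and the control group (CTRL, 3 mice) was untreated. No group carries a transgene in the labels, and the TPA dose, its timing and the age of the mice are not given in the sources used here. For each array 300 cells were sorted as positive for the integrin ITGA6 and negative for CD34, a gate that takes in interfollicular and infundibulum cells. Cells were freed by overnight incubation in cold trypsin in every group.

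In a desmosome the extracellular parts of desmogleins and desmocollins bind those of the neighbouring cell in the presence of calcium. Their tails bind the armadillo proteins plakoglobin (Jup) and the plakophilins, and desmoplakin (Dsp) ties this plaque to keratin. In skin, desmoglein 1 and desmocollin 1 are known from the upper, differentiating layers and desmoglein 3 and desmocollin 3 from the lower ones, while desmoglein 2 and desmocollin 2 are best known from simple epithelia and heart muscle. The 6 cadherin genes lie in 1 cluster on mouse chromosome 18 (GRCm38.p6), which runs Dsc3, Dsc2, Dsc1, Dsg1c, Dsg1a, Dsg1b, Dsg4, Dsg3, Dsg2 with no other protein-coding gene of RefSeq between them.

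Levels are log2 RMA signals, summarised where a mean is given as mean ± SD of a group, and differences are log2 differences ± SE from limma's moderated test across all 17097 genes, with Benjamini-Hochberg adjustment and a threshold of 0.05. Signal stands for background when it lies under the 95th percentile of 79 chemosensory receptor genes (symbols Olfr, Vmn and Taar), taken on the same array, which was between 6.37 and 6.55. All 8 measured desmosome genes lay over this limit on every array. Within groups, Pearson correlations over all genes were 0.990 to 0.995, and the highest signal was at least 13.69 on every array. The basal keratins Krt5 and Krt14 were between 13.23 and 13.34 on every array, and Cd34 was under the limit on all of them. The group names are those of the labels, although Odc1, known to be induced by phorbol ester, ran against them: it was 9.84 ± 0.14 in expanded, 8.99 ± 0.09 in TPA and 11.34 ± 0.02 in control arrays. Krt16, a keratin of wounded epidermis, was likewise lowest in the TPA arrays (12.90 ± 0.04 in expanded, 12.15 ± 0.07 in TPA and 13.04 ± 0.01 in control arrays). Mki67, also looked up as a check, did not pass in any comparison. It was 10.48 ± 0.09 in expanded, 10.32 ± 0.01 in TPA and 10.44 ± 0.10 in control arrays. If the TPA and control labels were exchanged, each direction given between those groups would turn, and the expanded mice would have to be set against the arrays now labelled TPA, where Dsc2 was higher in expanded and neither Dsg1a nor Dsc1 passed.

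Among the desmosome genes 3 cadherins changed in the expanded skin and the measured plaque genes did not pass the test. Dsg1a and Dsc1 rose and Dsc2 fell, which is 3 of 8 measured genes beside 11.5% of all genes (5.69% higher and 5.78% lower). Between TPA and control, Dsg1a rose and Dsc2 fell, which is 2 of 8 beside 20.8% of all genes (10.2% higher and 10.6% lower). Between expanded and TPA, Dsc2 was higher in the expanded arrays, which is 1 of 8 beside 5.98% of all genes (3.16% higher and 2.81% lower). These 3 comparisons share arrays and are not independent of each other. In size, the median absolute difference of the 8 genes was 0.16 between expanded and control, where that of all genes was 0.11. It was 0.14 against 0.15 for all genes between TPA and control, and 0.05 against 0.11 between expanded and TPA.

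**Figure D1:**
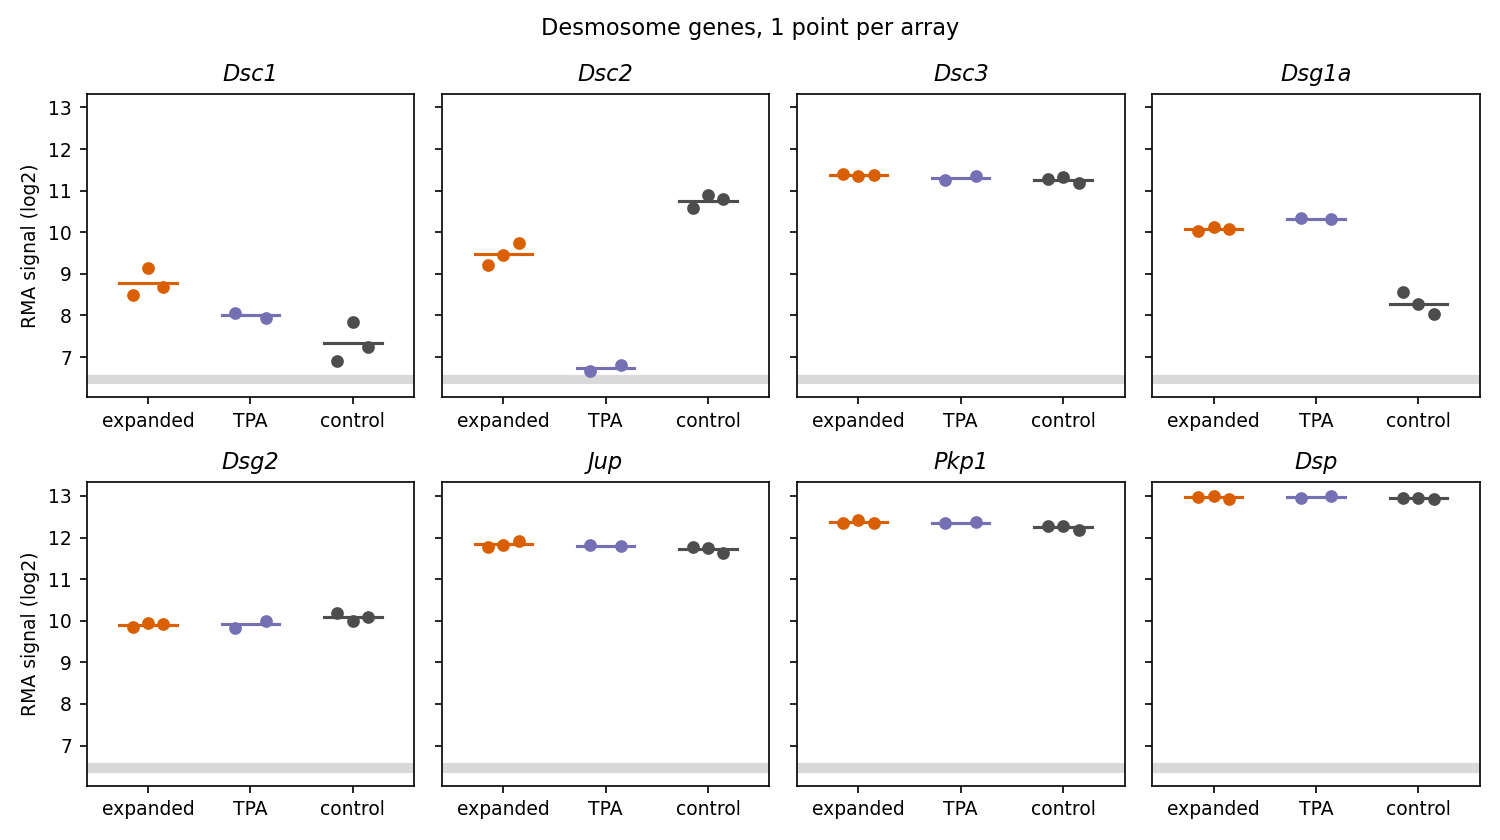
RMA signal (log2, vertical axis) of the 8 measured desmosome genes on each array, with 1 point per mouse, a line at the group mean and a grey band for the range of the background limit over arrays. Dsc2 falls to 6.67 and 6.80 in the TPA arrays, Dsg1a lies above 10 in all expanded and TPA arrays, and the group means of Dsc3, Dsg2, Jup, Pkp1 and Dsp lie close together.

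Of the desmocollins, Dsc2 had the largest difference. Its leading probe set read 9.21, 9.45 and 9.75 in expanded mice, 6.67 and 6.80 in TPA mice and 10.57, 10.90 and 10.81 in control mice. The groups did not overlap: all control arrays were highest, all TPA arrays lowest, just over the background limit, and the expanded arrays lay between them. Dsc2 fell by 1.29 ± 0.14 on the log2 scale between expanded and control (2.45-fold lower, adjusted p = 0.000765). It fell by 4.02 ± 0.16 between TPA and control (16.3-fold lower, adjusted p = 2.13e-06), the 17th largest fall among the 1815 genes that were lower in the TPA arrays. The direct comparison of expanded with TPA gave 2.73 ± 0.16 (6.64-fold higher in expanded, adjusted p = 7.68e-05).

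The other probe set of Dsc2 gave the same order. It read 9.28, 9.71 and 9.83 in expanded mice, 6.37 and 6.14 in TPA mice and 10.78, 11.04 and 10.92 in control mice. Here both TPA arrays lay under the background limit, so that the difference is a bound, at least 4.44 lower than control and at least 3.13 lower than expanded on the log2 scale. With each probe set tested by itself, the fall between expanded and control was -1.31 ± 0.15 for this probe set (adjusted p = 0.00113), close to that of the leading one.

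Dsc1, the desmocollin of the upper layers, differed from control in the opposite direction from Dsc2, its neighbour in the gene cluster. It read 8.49, 9.14 and 8.69 in expanded mice, 8.07 and 7.94 in TPA mice and 6.90, 7.85 and 7.23 in control mice. Every expanded array lay above every TPA array, and both TPA arrays lay above the control arrays, the highest control array by a small margin. Dsc1 rose by 1.45 ± 0.24 between expanded and control (2.72-fold, adjusted p = 0.00567). The difference between TPA and control was 0.67 ± 0.27 (95% interval 0.06 to 1.29) and did not pass (adjusted p = 0.12), nor did that between expanded and TPA (0.77 ± 0.27, 95% interval 0.16 to 1.38, adjusted p = 0.15).

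The call of Dsc1 in the TPA arrays depended on the probe set and on 1 control mouse. A dimmer probe set read 6.95, 7.35 and 7.53 in expanded mice, 6.77 and 6.55 in TPA mice and 5.58, 5.72 and 5.21 in control mice, which all lay under the background limit. It passed between TPA and control when probe sets were tested one by one (1.16 ± 0.20, adjusted p = 0.00377), although counted from the limit that difference is only at least 0.15. For the leading probe set, leaving out control replicate 2 raised the difference to 0.94 (adjusted p = 0.0214).

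Dsc3, the desmocollin of the basal layer, did not pass in any comparison. It read 11.40, 11.35 and 11.38 in expanded mice, 11.27 and 11.36 in TPA mice and 11.27, 11.32 and 11.19 in control mice. The difference between expanded and control was 0.12 ± 0.07 (95% interval -0.04 to 0.27, adjusted p = 0.372) and that between TPA and control 0.05 ± 0.08 (95% interval -0.12 to 0.22, adjusted p = 0.712). These intervals leave out a change of the size seen for Dsc1 between expanded and control. Within an array, Dsc1 minus Dsc3 shows whether the 2 genes changed unequally: it averaged -2.60 in expanded, -3.31 in TPA and -3.93 in control arrays. The shift was 1.33 between expanded and control (two-sided exact permutation test, p = 0.1, the smallest that 3 against 3 arrays allow) and 0.62 between TPA and control (exact permutation p = 0.2, where 0.1 is the smallest). No call can be made from these tests.

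Of the desmogleins, Dsg1a rose in both the expanded and the TPA arrays. This desmoglein of the differentiating layers, whose human counterpart is the target of pemphigus foliaceus antibodies, read 10.03, 10.13 and 10.07 in expanded mice, 10.35 and 10.31 in TPA mice and 8.56, 8.27 and 8.03 in control mice. All treated arrays lay more than 1 log2 unit above the highest control array, and the expanded arrays varied little (SD 0.05) beside the control arrays (SD 0.27). Dsg1a rose by 1.79 ± 0.12 between expanded and control (3.47-fold, adjusted p = 8.21e-05) and by 2.04 ± 0.14 between TPA and control (4.13-fold, adjusted p = 2.52e-05). It ranked 22nd of 972 genes that were higher in the expanded arrays and 50th of 1744 in the TPA arrays. Between expanded and TPA it differed by -0.25 ± 0.14 (95% interval -0.56 to 0.06, adjusted p = 0.385), although the arrays of the 2 groups did not overlap.

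Dsg1a rests on a single probe set, and the mouse genome holds close copies of it, Dsg1b and Dsg1c, whose RNA may also bind this probe set, which was not tested. The probe set of Dsg1b read 7.57, 8.30 and 7.69 in expanded mice, 7.58 and 7.01 in TPA mice and 7.65, 7.91 and 7.78 in control mice. It did not pass between expanded and control (0.07 ± 0.21, adjusted p = 0.905) or between TPA and control (-0.49 ± 0.23, adjusted p = 0.194). Dsg1c has no probe set that carries its symbol alone.

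Dsg2, the most widely expressed desmoglein, read 9.85, 9.94 and 9.92 in expanded mice, 9.82 and 10.00 in TPA mice and 10.18, 9.99 and 10.09 in control mice. Differences from control were -0.19 ± 0.08 in the expanded arrays (95% interval -0.37 to -0.003, adjusted p = 0.203) and -0.18 ± 0.09 in the TPA arrays (95% interval -0.38 to 0.03, adjusted p = 0.217), and neither passed. Dsg2 had 6 probe sets. Their differences between expanded and control ran from -0.29 to -0.05 and those between TPA and control from -0.27 to 0.06, and none passed with each probe set tested by itself (lowest adjusted p = 0.0915, for limma's test of 1 of them between expanded and control).

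**Figure D2:**
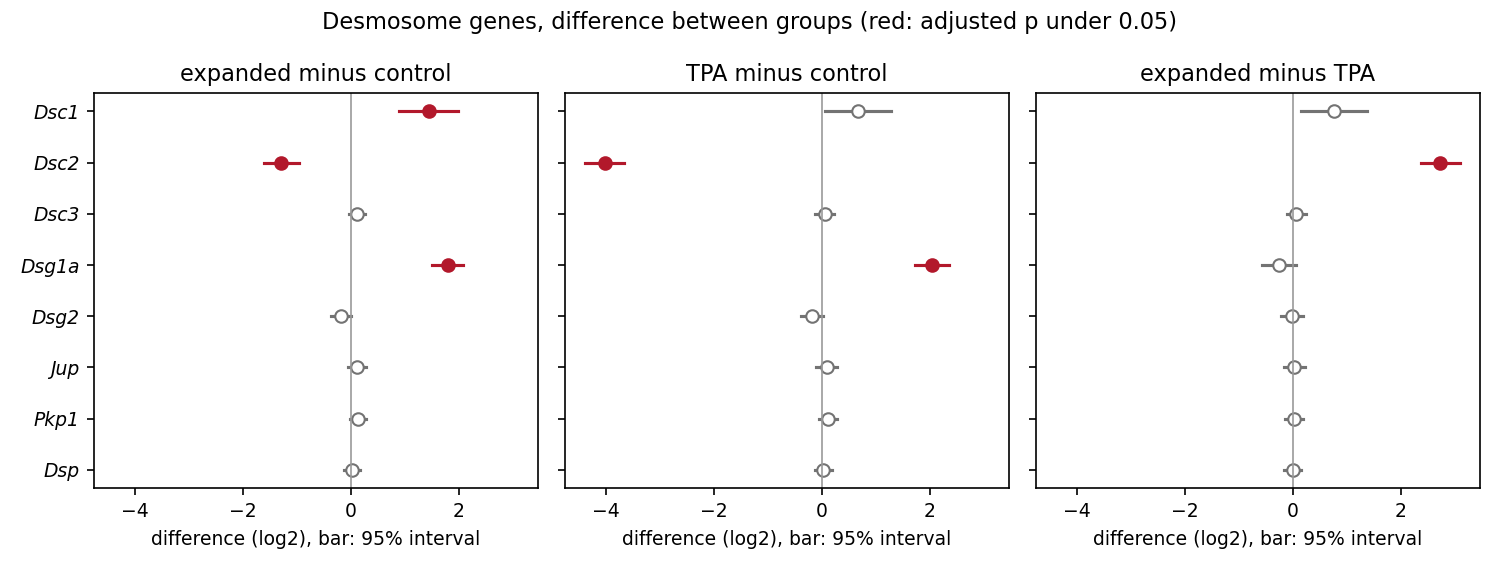
Log2 difference (horizontal axis, with 95% interval) of each measured desmosome gene in the comparisons expanded minus control, TPA minus control and expanded minus TPA, with red for adjusted p under 0.05. Dsc2 lies at -1.29, -4.02 and 2.73, Dsg1a at 1.79, 2.04 and -0.25, and the 3 plaque genes near 0 in each panel.

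None of the 3 measured plaque genes passed the test in any comparison. Plakoglobin (Jup) read 11.76, 11.83 and 11.92 in expanded mice, 11.82 and 11.80 in TPA mice and 11.78, 11.76 and 11.62 in control mice. Its difference from control was 0.12 ± 0.08 in the expanded arrays (95% interval -0.05 to 0.29, adjusted p = 0.425) and 0.09 ± 0.08 in the TPA arrays (95% interval -0.10 to 0.28, adjusted p = 0.529). The expanded arrays overlapped the control arrays, and the interval leaves out a rise of the size of Dsc1.

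Plakophilin 1 (Pkp1), which clusters desmosomal cadherins in stratified epithelia, read 12.36, 12.41 and 12.35 in expanded mice, 12.34 and 12.37 in TPA mice and 12.28, 12.28 and 12.18 in control mice. All control arrays lay lowest, by a margin that did not pass: 0.13 ± 0.07 between expanded and control (95% interval -0.02 to 0.28, adjusted p = 0.296) and 0.11 ± 0.07 between TPA and control (95% interval -0.06 to 0.27, adjusted p = 0.366). With a trended, robust variance model the first of these passed (adjusted p = 0.0388).

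Desmoplakin (Dsp), the linker to keratin, varied least. It read 12.980, 12.997 and 12.924 in expanded mice, 12.941 and 13.002 in TPA mice and 12.952, 12.956 and 12.928 in control mice, a range of 0.08 over all 8 arrays. Its difference from control was 0.02 ± 0.06 in the expanded arrays (95% interval -0.12 to 0.16, adjusted p = 0.902) and 0.03 ± 0.07 in the TPA arrays (95% interval -0.13 to 0.19, adjusted p = 0.846). The other 2 of its 3 probe sets did not pass in any comparison either. These signals lie near the top of the scale, where differences are compressed. The leading probe sets of Jup and Dsg2 are of the kind (suffix s) that the array maker marks as matching transcripts of more than 1 gene.

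**Figure D3:**
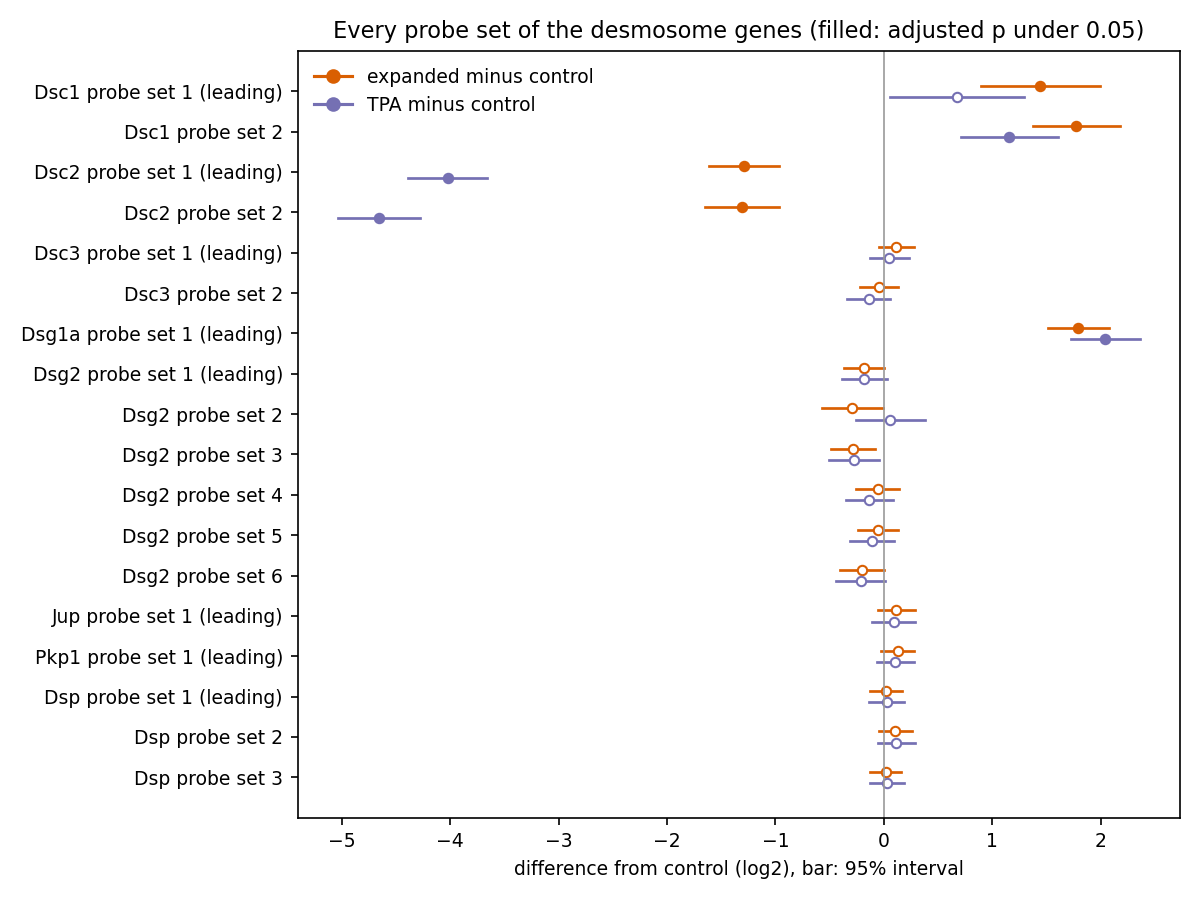
Log2 difference from control (horizontal axis, with 95% interval) of all 18 probe sets of the 8 genes, each tested by itself, in expanded (orange) and TPA (purple) arrays, filled where adjusted p was under 0.05. Both probe sets of Dsc2 fall and both of Dsc1 rise in the expanded arrays, and no probe set of Dsc3, Dsg2, Jup, Pkp1 or Dsp is filled.

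In bulk samples of sorted cells, a different share of cells of a type and a different amount of RNA per cell cannot be told apart. Of 7 listed and measured markers of suprabasal cells, 3 (Krt1, Krt10 and Krtdap) rose with Dsg1a in both the expanded and the TPA arrays. Sbsn and Ivl did not pass, and Ivl, an envelope protein, had differences of the opposite sign, -0.33 ± 0.13 between expanded and control (limma adjusted p = 0.168) and -0.48 ± 0.15 between TPA and control (limma adjusted p = 0.0532). Lor and Flg were under the background limit on every array. The mean level of the list was 9.75 to 9.84 in expanded, 9.64 to 9.85 in TPA and 9.06 to 9.42 in control arrays. Among the control arrays the list mean was highest in replicate 1 (9.42) and lowest in replicate 2 (9.06). Dsc1 was lowest in replicate 1 (6.90) and highest in replicate 2 (7.85). Dsg1a was highest in replicate 1 (8.56) and lowest in replicate 3 (8.03). The part of these cells in the rise of Dsc1 and Dsg1a was not tested. Of 5 basal markers, Itga6 and Itgb4 fell in both the expanded and the TPA arrays, and Krt5, Krt14 and Col17a1 did not pass; the mean of the list was 12.69 to 12.71 in expanded, 12.70 to 12.75 in TPA and 12.87 to 12.93 in control arrays. Itga6, the sort marker, fell by 0.47 ± 0.07 in the expanded and by 0.69 ± 0.08 in the TPA arrays (limma adjusted p = 0.00275 and 0.000323).

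Infundibulum markers varied within groups (mean of 5 genes 8.29 to 10.08 in expanded, 10.29 to 10.51 in TPA and 9.24 to 10.57 in control arrays). Among them Plet1 fell by 1.08 ± 0.13 in the expanded and by 0.70 ± 0.15 in the TPA arrays (limma adjusted p = 0.0013 and 0.0105). The other 4 did not pass against control, and their signs were mixed. In the TPA arrays Defb6 (2.19 ± 0.90), Cst6 (1.18 ± 0.75) and Krt79 (0.67 ± 0.81) were higher and Lrig1 (-0.03 ± 0.31) was lower. In the expanded arrays Defb6 (0.56 ± 0.81) and Cst6 (0.09 ± 0.67) were higher, and Krt79 (-1.11 ± 0.72) and Lrig1 (-0.42 ± 0.28) lower. Of 5 fibroblast markers only Dcn passed between TPA and control, where it rose by 1.69 ± 0.23 (limma adjusted p = 0.00117). Col1a1 (-0.68 ± 0.31) and Col3a1 (-0.10 ± 0.18) had differences of the opposite sign there and did not pass. Col1a2 and Lum were under the background limit on every array. Control replicate 1 stood apart in endothelial markers, with a mean of 5 genes of 7.94 where the other control arrays had 6.23 and 6.40. Control replicate 3 stood apart in melanocyte markers, with a mean of 4 genes of 7.10 where the other control arrays had 5.83 and 5.91. The mean of 5 immune markers was 6.03 and 6.05 in control replicates 1 and 3 and 5.43 in replicate 2. The part of these cells in the results was not tested. Without control replicate 1, Dsg1a differed between expanded and control by 1.93 (adjusted p = 0.000159), Dsc1 by 1.23 (adjusted p = 0.018) and Dsc2 by -1.39 (adjusted p = 0.00253), so each stayed past the threshold. Without control replicate 3 the differences were 1.66 for Dsg1a (adjusted p = 0.000448), 1.40 for Dsc1 (adjusted p = 0.0291) and -1.27 for Dsc2 (adjusted p = 0.00573). Each of these fits keeps either control replicate 1 or 3, so neither tests the part of these cells.

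For the 3 genes whose group means ranged over more than 1 log2 unit, the genes with the most similar pattern were found by the root mean square difference over the 8 arrays, after each gene was centred on its mean, among the 8548 other genes above the median signal. Nearest to Dsc2 were Procr (0.20), Klk10 (0.22) and Pdpn (0.25), which encode the endothelial protein C receptor, a kallikrein-related peptidase and podoplanin. Nearest to Dsg1a were Slc22a4 (0.10), an organic cation transporter, Cpxm2 (0.13) and Smoc2 (0.16), a matrix protein. Nearest to Dsc1 were Serpinb3a (0.27), a protease inhibitor, Rassf10 (0.30) and Psapl1 (0.31). By the same measure Dsc1 and Dsg1a were 0.64 apart. Dsc1 was 0.64 from Pkp1 and 0.65 from Dsc3 and Jup, which vary little, so those distances mostly reflect the spread of Dsc1 itself. Setting them beside the distance to Dsg1a therefore cannot show whether Dsc1 and Dsg1a varied together. Dsc3, Pkp1, Jup and Dsp lay within 0.0806 of each other, which by this measure holds for any genes that vary little. Their ranges over all arrays were 0.21, 0.23, 0.30 and 0.08.

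Of 7 measured partners (Dsg1b, Pkp2, Pkp4, Perp, Evpl, Ppl and Cdsn), limma called 0 between expanded and control, beside 11.5% of all genes. In that comparison 2 of the partners lay under an unadjusted p of 0.05. Between TPA and control 1 rose and 1 fell, beside 10.2% and 10.6% of all genes. Periplakin (Ppl), a plakin of the desmosome and cornified envelope, rose by 0.62 ± 0.15 (adjusted p = 0.0171), with 9.97 and 9.93 in TPA arrays and 9.28, 9.27 and 9.43 in control arrays. Pkp4 fell by 0.36 ± 0.07 (adjusted p = 0.00953), with 10.30 and 10.34 in TPA arrays and 10.65, 10.65 and 10.74 in control arrays. Corneodesmosin (Cdsn), which joins desmosomes of the uppermost layers, varied among the controls: it read 7.01, 6.60 and 6.74 in expanded, 6.33 and 6.56 in TPA and 6.95, 9.22 and 10.01 in control arrays, and did not pass (adjusted p = 0.0936 and 0.054 against control).

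Desmoplakin anchors keratin filaments. Of 9 keratin genes measured, 4 rose between expanded and control, beside 5.69% of all genes. They were Krt2 (5.72 ± 0.28, over the background limit on 2 of 3 control arrays), Krt1 (1.73 ± 0.33), Krt10 (1.47 ± 0.23) and Krt15 (1.23 ± 0.09). The first 3 are keratins of the suprabasal layers and Krt15 is one of basal cells. Between TPA and control the same 4 genes rose and 3 fell, beside 10.2% and 10.6% of all genes. The keratins that fell were Krt6b (-3.93 ± 1.06), Krt16 (-0.89 ± 0.07) and Krt6a (-0.69 ± 0.09). The 2 TPA arrays disagreed on Krt6b, at 6.47 and 11.27. Krt5 and Krt14 did not pass in any comparison. Their signals, like those of Dsp, lie near the top of the scale, where differences are compressed. The same limit holds for some keratins that passed. Krt6a averaged 13.14 in expanded and 13.23 in control arrays, Krt16 12.90 and 13.04, and Krt1 13.02 in expanded arrays.

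**Figure D4:**
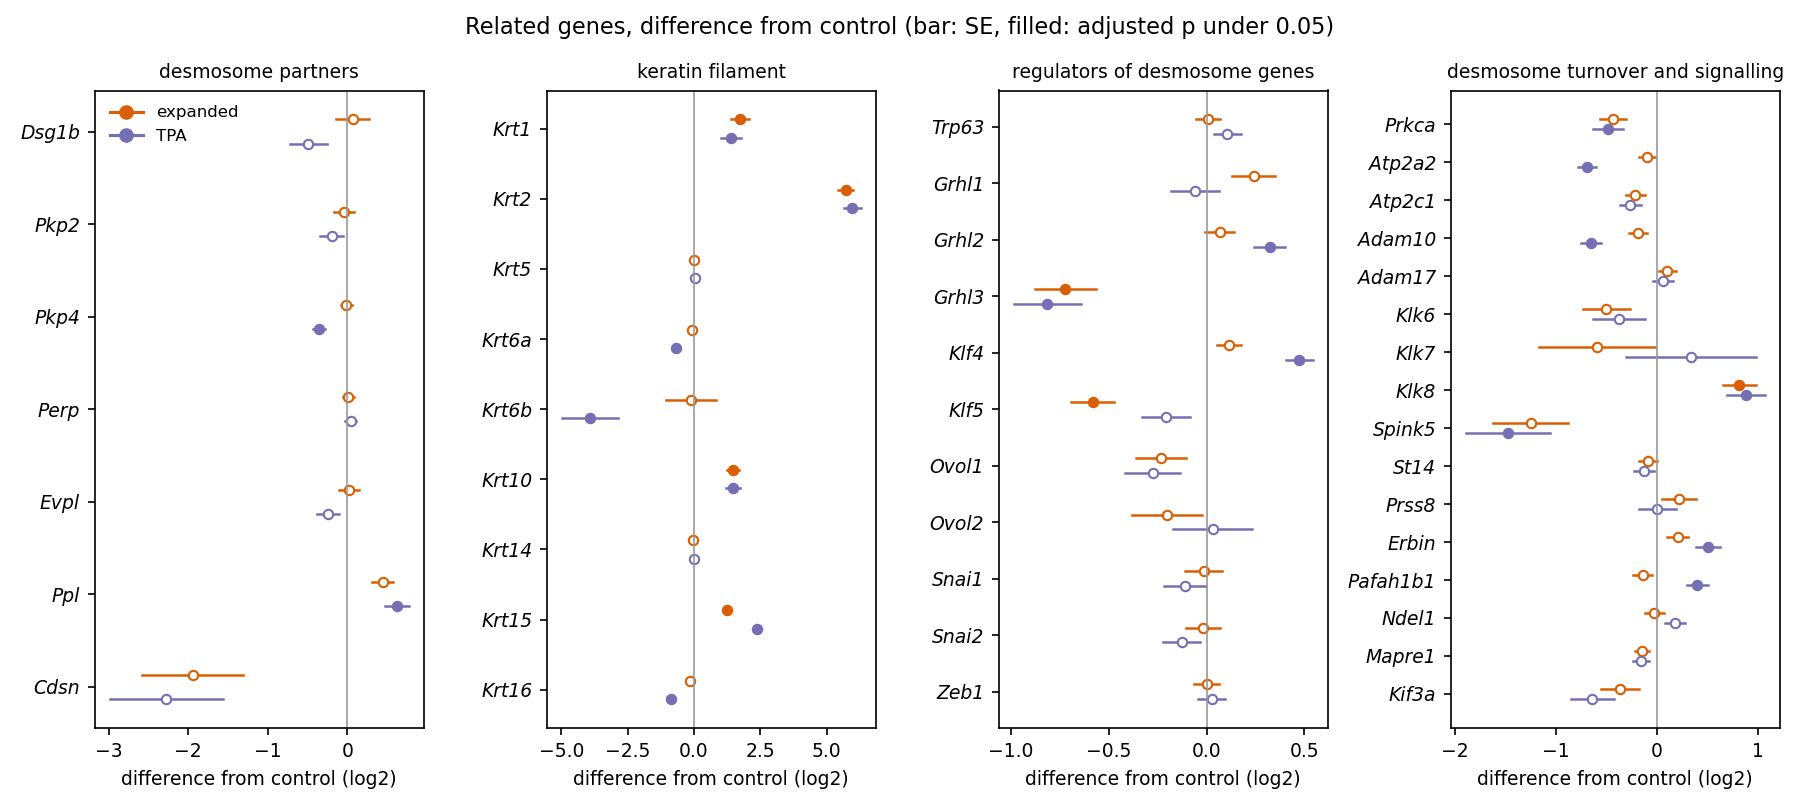
Log2 difference from control (horizontal axis, bars are SE, scales differ between panels) of the measured genes of 4 lists: desmosome partners, keratins, transcription factors tied to desmosome genes, and turnover and signalling genes, in expanded (orange) and TPA (purple) arrays, filled where adjusted p was under 0.05. Keratins Krt2, Krt1, Krt10 and Krt15 rise in both groups, and no partner is filled for expanded minus control.

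Among 11 transcription factors tied to epithelial junction genes, 2 passed between expanded and control, beside 11.5% of all genes. Both fell, Grhl3 (-0.72 ± 0.15) and Klf5 (-0.58 ± 0.11). Between TPA and control Klf4 (0.47 ± 0.07), a factor of epidermal barrier formation, and Grhl2 (0.32 ± 0.08), a regulator of epithelial junctions, rose and Grhl3 (-0.82 ± 0.17) fell. Of all genes, 10.2% rose and 10.6% fell there. Grhl1, known to activate desmoglein 1 in mouse epidermis, did not pass: it read 9.67, 9.64 and 9.55 in expanded, 9.39 and 9.25 in TPA and 9.25, 9.63 and 9.26 in control arrays. Trp63, the master factor of stratified epithelium, did not pass either, and Snai1 and Zeb1 were under the background limit on every array.

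Of 16 measured genes of desmosome turnover and signalling, 1 changed between expanded and control, beside 11.5% of all genes. Klk8, a kallikrein protease of the upper epidermis, rose by 0.82 ± 0.17 there (adjusted p = 0.0148) and by 0.88 ± 0.19 between TPA and control (adjusted p = 0.00988). Between TPA and control 3 rose and 4 fell, beside 10.2% and 10.6% of all genes. Erbin, which in human keratinocytes binds desmoglein 1 and damps ERK signalling, was at 0.51 ± 0.12 and Pafah1b1 (Lis1), a microtubule regulator that desmoplakin recruits, at 0.40 ± 0.11. The falls were those of Spink5 (-1.48 ± 0.42), an inhibitor of kallikreins whose TPA signals lay under the background limit, so that its fall is a bound of at least 0.40 (at least 0.91 without control replicate 1, which also lay under the limit, an alternative chosen after seeing the data), Atp2a2 (-0.69 ± 0.09), the calcium pump mutated in Darier disease, Adam10 (-0.65 ± 0.10), a protease that sheds cadherins, and Prkca (-0.49 ± 0.15), a protein kinase C that weakens desmosomal adhesion when active. Control replicate 1 read 5.85 for Spink5, where the other control arrays read 7.43 and 7.34.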

How the data were processed

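The deposited table holds 45141 probe sets on 8 arrays as log2 signal; the submitters' processing notes name RMA, with no version. Per the labels' protocols, RNA of 300 sorted cells per array was amplified as cDNA. Detection calls and scan batches were not used here. The precision rests on the number of arrays.

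The platform annotation of 2016 gave 1 gene symbol to 28898 probe sets, several to 551 and none to 15588, and 104 array controls were left out. With limma 3.58.1 (R 4.3.3, lmFit and eBayes), group means were fitted to the 8 arrays together. The procedure was tried on simulated data for expanded against control only. Those values were drawn independently for each gene and array. The trial therefore does not cover effects shared within an array or the comparisons with TPA. An unadjusted p under 0.05 was reached by 4056, 5412 and 3307 genes. The Dsc1 minus Dsc3 difference was tested by exact permutation. A Dsg1a minus Dsg3 difference was planned but not run, because no probe set carries the symbol Dsg3 alone. Promoter motifs planned for the members were not used.

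All members, lists, the background limit and the rules were chosen with earlier results of these data known. Named are all members, up to 6 called genes per related list (the largest differences), marker and check genes, and the 3 nearest patterns per member. Added with their values already known were Dsg1b, Cdsn, Grhl1, Trp63, Snai1 and Zeb1. The mice of a group are separate animals, per the series' design text.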

Additional observations from a re-analysis of the deposited data

How the results depend on the processing

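The differences of the 8 genes in the 3 comparisons were recomputed under 18 alternatives each. The calls of Dsg1a and Dsc2 held in every comparison and alternative in which they were first made. Dsc1 between expanded and control lost its call in the test against a fold of 1.5 (adjusted p = 0.204). Dsc1 between TPA and control gained one when the probe sets of a gene were averaged (0.92, adjusted p = 0.0106) and without control replicate 2 (0.94), and Pkp1 between expanded and control gained one with the trended robust model. The causes were not tested, apart from the stricter hypothesis of the fold test. The count of desmosome genes called stayed within 1.5 times of its first value throughout. Of all genes, the fold test left 173 between expanded and control, 596 between TPA and control and 64 between expanded and TPA. With only the 2 groups compared, which leaves fewer arrays in the fit, 511 genes differed between expanded and TPA. With 1 array left out (a lone TPA array is then assumed to vary like the other groups) the counts ran from 1261 to 2076 between expanded and control, where the lowest came without control replicate 2. They ran from 560 to 922 between expanded and TPA, with 560 without expanded replicate 3, 568 without TPA replicate 1 and 636 without expanded replicate 2. Replicate numbers showed no pairing of the arrays in a weak check. For arrays that share a number the residual correlation was -0.18 to 0.03, while 0 of 6 expanded and control arrays correlated best with their own number. Residuals were taken from group means, so those of the 2 TPA arrays mirror each other, and the check cannot settle whether arrays were paired. With the replicate number as a block, 541 genes differed between expanded and TPA, and no call of a desmosome gene changed. Signals near the background limit (Dsc2 in TPA, the dimmer Dsc1 probe set in control) limit how far those differences can be read. So do signals near the top of the scale (Dsp, and the keratins Krt5, Krt14, Krt6a, Krt16 and Krt1). A Dsg1a minus Dsg3 difference was not run, since Dsg3 was not analysed here.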
